A study of Mus musculus with 6 samples.

Results

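Some C/EBPβ binding regions of mouse macrophages lay outside PU.1 binding and outside acetylated chromatin in the same cells, and these are the subject here. They were chosen by overlap of deposited region lists: an autosomal C/EBPβ region was kept when it shared no base with any macrophage PU.1 region and none with any macrophage H3K9Ace region. Of 24024 autosomal C/EBPβ regions, 6208 met this rule, 25.8%. Adipocyte H3K9Ace then divided them into 1074 regions that were acetylated in adipocytes and 5134 that were acetylated in neither cell type. Lack of PU.1 and of macrophage acetylation is thus a property of the choice and not a result.

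C/EBPβ is a basic leucine-zipper transcription factor that binds DNA as a dimer. In macrophages it takes part in the induction of inflammatory genes, and in preadipocytes it rises early in differentiation and helps to switch on the PPARγ gene. PU.1 belongs to the ETS family, is known for its part in myeloid and B-lineage development, and opens chromatin for other factors. H3K9Ace, acetylation of lysine 9 on histone H3, marks active promoters and enhancers. PPARγ is a nuclear receptor that binds DNA together with RXR, directs the making of fat cells and has a role in macrophage lipid handling.

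The study holds 6 ChIP-seq libraries, 1 for each target and cell type, so no group is replicated. Every test below compares lists of regions, not cell populations. The labels give 2 runs for macrophage PPARγ, and the longer adipocyte PPARγ list combines datasets by its name. The macrophages were peritoneal cells of male C57BL/6 mice, washed out 3 days after a thioglycollate injection and purified by 24 h of adherence, with at least 4 animals pooled for a run. As adipocytes the study used 3T3-L1 cells after differentiation, a single mouse line. Within a cell type no genotype, drug or time course separated the groups. Between the cell types, animal or line of origin, injection and culture differ as well, and these cannot be told apart from cell type. C/EBPβ and PU.1 were mapped in macrophages alone, PPARγ and H3K9Ace in both cell types, and the number of reads per library is unknown. The lists hold positions on build mm8 without gene names, so cell identity was not checked against marker genes and regions are given by position.

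The rule removed most of the C/EBPβ list. Over all autosomal C/EBPβ regions 53.5% overlapped PU.1 and 51.0% overlapped macrophage H3K9Ace. The regions that were left tended to be narrow, with a median width of 227 bp (quartiles 192 and 283) against 275 bp over all autosomal C/EBPβ regions. Widths ran from 121 to 740 bp. A wide region meets other regions more easily, so the rule itself favours narrow ones. Those acetylated in adipocytes had a median width of 234 bp and those acetylated in neither cell type 225 bp.

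Most of these regions were not far from what they lacked. The median gap from edge to edge was 5.10 kb to the nearest PU.1 region and 6.57 kb to the nearest macrophage H3K9Ace region, and 18.3% had PU.1 within 1 kb. Only 171 lay within 50 bp of either mark, and 171 C/EBPβ regions outside the set overlapped these marks by at most 50 bp. Just inside the limit 52 of 171 were acetylated in adipocytes, and just outside it 51 of 171. The macrophage PPARγ list of high stringency covered 4 regions just inside and 6 just outside. Other C/EBPβ regions lay at a median of 9.39 kb from these regions, and at 3.84 kb from the remaining C/EBPβ regions. The nearest region of the same kind was further away, at a median of 39.5 kb, and 335 of the 6208 had one within 1 kb.

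Acetylation in adipocytes was less common here than over C/EBPβ regions at large. It covered 1074 of 6208, 17.3% (95% Wilson interval 16.4 to 18.3), against 34.8% of all autosomal C/EBPβ regions. Part of that gap is set by the rule, which removes regions with macrophage H3K9Ace. Of those with PU.1 as well, 45.7% were acetylated in adipocytes. Of those without PU.1, 3265 were acetylated in adipocytes and 1695 were not. The closest comparison is with C/EBPβ regions that also lack macrophage H3K9Ace but carry PU.1. Of those, 692 of 5566 were acetylated in adipocytes, 12.4% (11.6 to 13.3). The odds of adipocyte acetylation were 1.47 times higher without PU.1 (1.33 to 1.64, 2-sided Fisher's exact test, adjusted p = 1.87e-13 over 10 share tests). Fisher's tests treat regions as independent, which neighbouring regions are not. With C/EBPβ regions thinned to at least 10 kb apart the ratio was 1.55.

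**Figure D1:**
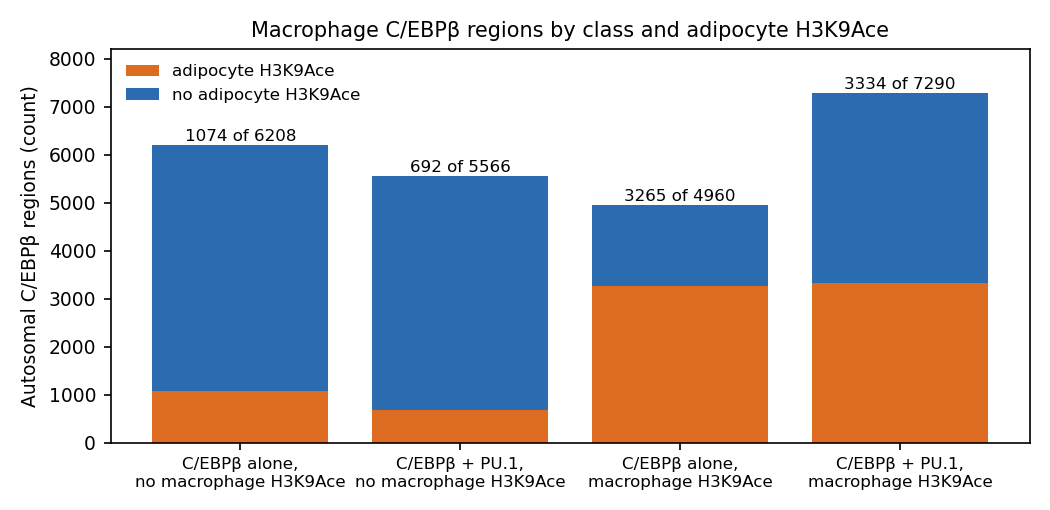
Number of autosomal macrophage C/EBPβ regions (vertical axis, count) in each class by PU.1 and macrophage H3K9Ace, split by adipocyte H3K9Ace (orange, overlapping; blue, not). The first bar is the set described here, with 1074 of 6208 regions acetylated in adipocytes.

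The 1074 adipocyte-acetylated regions lay in 1045 separate acetylated regions of adipocyte chromatin. Single occupancy was the rule, as 1014 held 1 of them and 31 held 2. These acetylated regions had a median width of 1850 bp (quartiles 1000 and 3750), against 1000 bp for the 49451 autosomal adipocyte H3K9Ace regions without one. The C/EBPβ centre sat at a median of 373 bp inside the nearer edge of the acetylated region, with centres outside it counted as negative. Relative to the width of the acetylated region the median was 0.227. For C/EBPβ-alone regions acetylated in both cell types these values were 1012 bp and 0.300, in acetylated regions with a median width of 3650 bp. The centre of 117 of the 1074 lay outside the acetylated region that the C/EBPβ region touched, and so did 97 of the 3265 acetylated in both. The rule bars macrophage H3K9Ace at the C/EBPβ region itself, so part of this contrast may be set by the rule. Where the acetylated region met macrophage H3K9Ace elsewhere the relative position was 0.171, and where it was clear of it 0.254.

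Among the adipocyte-acetylated regions 2 kinds of surroundings were present. For 719 of the 1074 (66.9%) the whole adipocyte acetylated region was clear of macrophage H3K9Ace, and the nearest macrophage acetylation was at a median of 7.58 kb. For the other 355 (33.1%) the acetylated region also met macrophage acetylation, which ended short of the C/EBPβ region by a median of 388 bp. Acetylated regions were wide in this second kind, with a median of 4450 bp against 1300 bp. Adipocyte PPARγ in the final list covered 63 of the 719, 8.76% (6.91 to 11.1), and 16 of the 355, 4.51% (2.79 to 7.20). This division was made after the values were seen and was not tested. The 3 acetylated regions fixed for naming, the first by position among the 31 that held 2, were all on chromosome 1. The one at 60803701 to 60806150 and the one at 121925751 to 121928650 were clear of macrophage H3K9Ace and held final adipocyte PPARγ. The one at 145761651 to 145769850 overlapped macrophage H3K9Ace and held no adipocyte PPARγ of either list.

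Adipocyte PPARγ was concentrated in the adipocyte-acetylated part. In the final list, whose regions all have an authors' fold of at least 5 over control, 118 of the 6208 regions overlapped PPARγ, 1.90%, close to 1.58% of all autosomal C/EBPβ regions. Of these, 79 were among the 1074 acetylated in adipocytes, 7.36% (5.94 to 9.07). The other 39 were among the 5134 acetylated in neither cell type, 0.760% (0.556 to 1.04). The odds ratio was 10.4 (6.93 to 15.7, 2-sided Fisher's exact test, adjusted p = 5.13e-33). The same held with the longer adipocyte list, whose name says that it combines datasets and whose regions are wider, with a median of 899 bp. It covered 456 of the 6208 regions, 7.35% against 7.86% of all autosomal C/EBPβ regions. Of the adipocyte-acetylated regions it covered 279, 26.0% (23.4 to 28.7), and of the others 177, 3.45% (2.98 to 3.98). That odds ratio was 9.83 (7.99 to 12.1, 2-sided Fisher's exact test, adjusted p = 3.8e-107). Even so, 795 of the 1074 adipocyte-acetylated regions had no adipocyte PPARγ in either list. A contrast of this kind was not particular to the set. PU.1-bound regions without macrophage H3K9Ace had final adipocyte PPARγ at 6.79% with adipocyte acetylation and 0.164% without it. For C/EBPβ-alone regions with macrophage H3K9Ace the shares were 2.79% of 3265 and 0.295% of 1695.

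**Figure D2:**
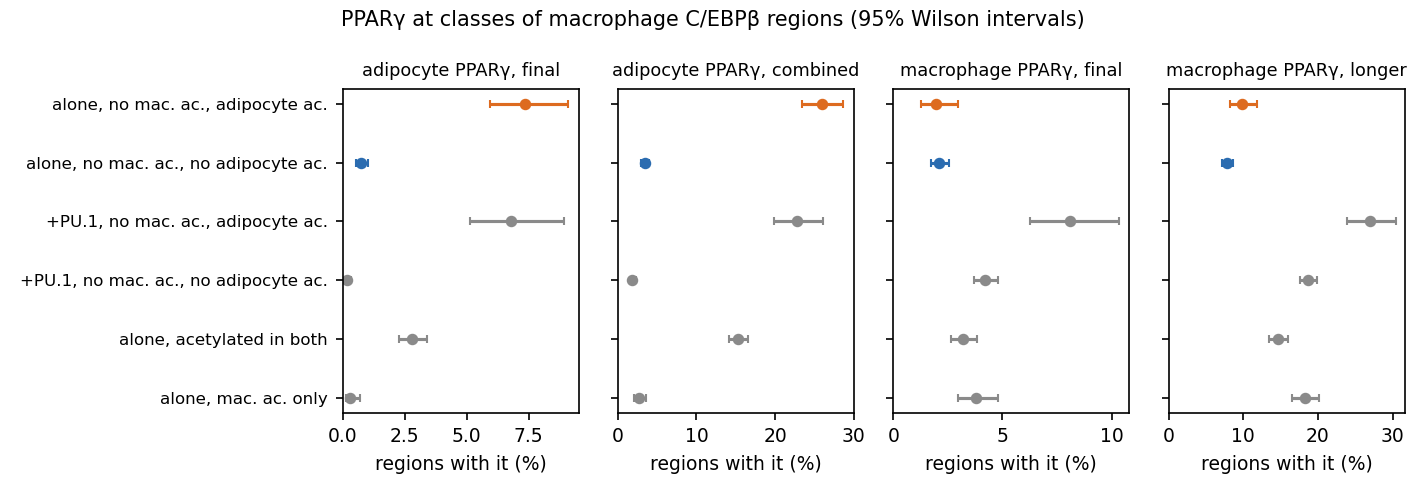
Share of C/EBPβ regions (horizontal axes, percent, with 95% Wilson intervals) that overlap each of 4 PPARγ lists, by class. "Alone" means without PU.1, "ac." means H3K9Ace and "mac." means macrophage. The set described here is in orange (acetylated in adipocytes) and blue (acetylated in neither cell type), and these subsets stand apart in the adipocyte lists, at 7.36% and 0.760% in the final one.

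Adipocyte acetylation without macrophage acetylation went with more adipocyte PPARγ than acetylation in both cell types. Of the 3265 C/EBPβ-alone regions acetylated in both, 91 overlapped final adipocyte PPARγ, 2.79% (2.28 to 3.41). The odds at the adipocyte-acetylated regions described here were 2.77 times higher (2.0 to 3.82, 2-sided Fisher's exact test, adjusted p = 6.12e-10). In the combined list the shares were 26.0% and 15.3% (14.1 to 16.6), with an odds ratio of 1.95 (1.64 to 2.30, 2-sided Fisher's exact test, adjusted p = 3.07e-14). With PU.1 and macrophage H3K9Ace required to be at least 1 kb away, which removes the flanks of macrophage-acetylated chromatin, the odds ratio in the final list was 4.14.

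PU.1-bound C/EBPβ regions without macrophage H3K9Ace were compared after the data were seen, with adjustment over 4 tests. Where both were acetylated in adipocytes, final adipocyte PPARγ covered 79 of 1074 regions without PU.1 and 47 of 692 with it, 7.36% and 6.79%. The odds ratio was 1.09 (0.739 to 1.62, 2-sided Fisher's exact test, adjusted p = 0.705), so a difference was not detectable, and the interval allows one in either direction. In the combined list the ratio was 1.19 (0.943 to 1.49, by Fisher's exact test an adjusted p of 0.189). Where neither cell type showed acetylation, 39 of 5134 regions without PU.1 carried final adipocyte PPARγ and 8 of 4874 regions with it, 0.760% and 0.164%. Here the ratio was 4.66 (2.14 to 11.5, 2-sided Fisher's exact test, adjusted p = 2.27e-05). The combined list gave 3.45% and 1.85%, a ratio of 1.90 (1.46 to 2.48, by Fisher's exact test an adjusted p of 2.36e-06).

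The 39 regions with final adipocyte PPARγ but no adipocyte acetylation lay at a median of 2.73 kb from adipocyte H3K9Ace, with 13 of them within 1 kb and 27 within 10 kb. For all 5134 regions acetylated in neither cell type the median gap was 18.05 kb, and 1911 had it within 10 kb. All 39 were also covered by the combined list.

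Macrophage PPARγ was uncommon at the set as a whole. The final macrophage list covered 129 of the 6208 regions, 2.08% (1.75 to 2.46), against 5.00% of all autosomal C/EBPβ regions. PU.1-bound C/EBPβ regions without macrophage H3K9Ace carried it in 261 of 5566 cases, 4.69% (4.16 to 5.28). The odds without PU.1 were 0.431 of those with it (0.345 to 0.536, 2-sided Fisher's exact test, adjusted p = 4.27e-15). In the longer macrophage list, which goes down to weaker regions, 507 of 6208 were covered, 8.17% against 19.6% of all autosomal C/EBPβ regions and 19.7% of the PU.1-bound comparison class. That odds ratio was 0.362 (0.323 to 0.405, 2-sided Fisher's exact test, adjusted p = 1.65e-74). Narrower regions meet PPARγ less easily, and within quartiles of C/EBPβ width the ratios were 0.572 for the final and 0.480 for the longer list.

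The subsets could not be told apart by final macrophage PPARγ. It covered 21 of 1074 adipocyte-acetylated regions, 1.96% (1.28 to 2.97), and 108 of 5134 of the others, 2.10% (1.75 to 2.53). The odds ratio was 0.928 (0.550 to 1.5, 2-sided Fisher's exact test, adjusted p = 0.815), and the interval leaves room for a difference in either direction. The longer list gave 9.87% and 7.81%, a ratio of 1.29 (1.02 to 1.62, 2-sided Fisher's exact test, adjusted p = 0.0304). That call was lost within strata of C/EBPβ width, where the Mantel-Haenszel ratio was 1.26. It was lost too with regions at least 10 kb apart, where the ratio was 1.17 (Fisher's exact test, adjusted p = 0.350). The call held under the other 6 of 8 alternatives. The highest ratio, 1.52, came with the C/EBPβ centre inside the other region (Fisher's exact test, adjusted p = 0.000365).

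Regions with PPARγ in one cell type had it in the other more often than the rest did. Of the 118 regions under final adipocyte PPARγ, 25 also lay under final macrophage PPARγ, 21.2% (14.8 to 29.4), against 104 of the remaining 6090, 1.71% (1.41 to 2.06). The odds ratio was 15.5 (9.13 to 25.4, 2-sided Fisher's exact test, adjusted p = 1.08e-18). In the upper 50% of both lists by fold it was 25.2. Of the 25 joint positions, 11 were acetylated in adipocytes and 14 in neither cell type. Over the whole set 1074 of 6208, 17.3%, were acetylated in adipocytes, a lower share. Of the 93 regions with final PPARγ in adipocytes alone 68 were, 73.1%, a higher share. Of the 104 with it in macrophages alone 10 were, 9.62%. The differences of the 25 from these groups were not tested. Among regions acetylated in neither cell type, 14 of the 39 with adipocyte PPARγ had macrophage PPARγ, 35.9% (22.7 to 51.6). Among adipocyte-acetylated regions it was 11 of 79, 13.9% (7.96 to 23.2). The odds ratios within these subsets were 29.8 and 15.9, and their difference was not tested. In the longer lists 106 regions lay under both, with an odds ratio of 4.04 over the whole set.

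Most regions carried no PPARγ of any list. In neither final list were 5986 of 6208, 96.4%, and in neither longer list 5351, 86.2%. For the regions acetylated in neither cell type the share outside both longer lists was 89.7%, and for the adipocyte-acetylated ones 69.4%.

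The surroundings of the subsets were measured as well. Macrophage H3K9Ace lay within 1 kb of 310 of the 1074 adipocyte-acetylated regions, 28.9% (26.2 to 31.6), and of 803 of the 5134 others, 15.6% (14.7 to 16.7), with median gaps of 3.29 kb and 7.43 kb. PU.1 lay within 1 kb of 18.3% of either subset. The combined adipocyte PPARγ list was reached at a median of 6.32 kb from the adipocyte-acetylated regions and 56.4 kb from the others. Final macrophage PPARγ was about as far from both, at 200.9 kb and 211.3 kb. These distances are given as descriptions.

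**Figure D3:**
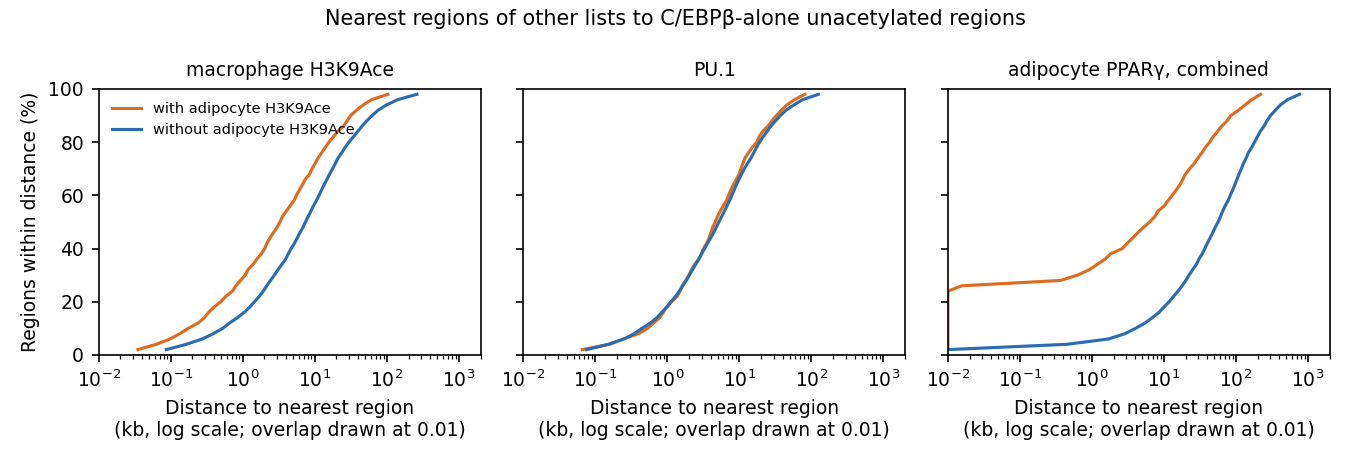
Cumulative share of C/EBPβ-alone unacetylated regions (vertical axes, percent) within a given edge-to-edge distance (horizontal axes, kb, log scale) of the nearest macrophage H3K9Ace, PU.1 and combined adipocyte PPARγ region. The curves of the subsets with (orange) and without (blue) adipocyte H3K9Ace nearly coincide for PU.1 and part for the other lists, with medians of 6.32 and 56.4 kb to adipocyte PPARγ.

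The strength of the PPARγ regions at these sites was read from the authors' fold. The 117 final adipocyte PPARγ regions involved, 4.48% of the autosomal list, had a median authors' fold of 6.24 (quartiles 5.57 and 7.49), against 6.39 over the autosomal list and 6.49 at other C/EBPβ regions. The fold was 6.25 at adipocyte-acetylated regions and 6.15 at the others. The 125 final macrophage PPARγ regions, 6.50% of the autosomal list, had a median fold of 6.94 (5.69 and 9.38), against 6.21 over the list and 6.42 at other C/EBPβ regions. Among the 104 at regions acetylated in neither cell type the macrophage fold reached 22.1, and among the 21 in adipocyte-acetylated regions at most 10.9. The larger group is the likelier to hold the highest values. The medians were 6.92 and 7.48, so the highest values and the medians run in opposite directions. These folds are the authors' own and were not tested.

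**Figure D4:**
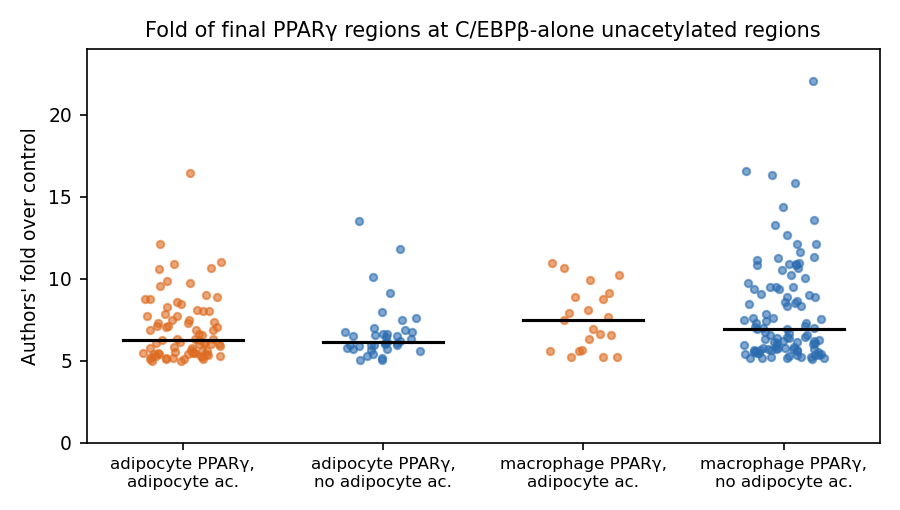
Authors' fold over control (vertical axis) of each final PPARγ region at C/EBPβ-alone unacetylated regions, by cell type of PPARγ and adipocyte H3K9Ace, where points are PPARγ regions, bars are medians and sideways spread is for display. The macrophage folds above 12 all belong to regions without adipocyte H3K9Ace, the larger group, with 104 of the 125 macrophage PPARγ regions.

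Of the 8 regions under the strongest final adipocyte PPARγ, 6 were acetylated in adipocytes (79 of all 118 were) and 4 also had final macrophage PPARγ. The highest, on chromosome 15 at 3905022 to 3905253, had an adipocyte fold of 16.4 and a macrophage fold of 10.2, with PU.1 27.5 kb and macrophage H3K9Ace 23.3 kb away. The next, on chromosome 6 at 119365078 to 119365243 (fold 13.5), had no macrophage PPARγ, and adipocyte H3K9Ace began 0.507 kb from it. On chromosome 3 at 22186741 to 22186977 the adipocyte fold was 12.1 and the macrophage fold 7.91, within adipocyte acetylation. The region on chromosome 14 at 103222572 to 103222767 had folds of 11.8 in adipocytes and 22.1 in macrophages and the nearest H3K9Ace was 54.9 kb away in macrophages and 184 kb away in adipocytes. The region on chromosome 15 between 102815569 and 102815737 (fold 11) came next. Chromosome 5 held one between 23579038 and 23579334 (10.9), and chromosome 6 one between 115484994 and 115485433 (10.7). All 3 were acetylated in adipocytes and had no final macrophage PPARγ. The last of the 8, on chromosome 2 at 101669586 to 101669843, had folds of 10.6 and 7.48.

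None of the 8 regions under the strongest final macrophage PPARγ was acetylated in adipocytes, and 4 also had final adipocyte PPARγ. Of all 129 regions under that list only 21 were acetylated in adipocytes, so few among any 8 would be. After the chromosome 14 region named above came chromosome 2 at 16600775 to 16600970 (fold 16.6), which lay 159 kb from PU.1 and 327 kb from macrophage H3K9Ace. It was covered by the combined but not the final adipocyte list. Chromosome 2 also held the next pair, from 150587374 to 150587537 (16.3) without adipocyte PPARγ and from 125839262 to 125839448 (15.8) with it. The region on chromosome 14 at 58568357 to 58568545 (14.4) was bound in both cell types. One on chromosome 17, from 49886995 to 49887328 (13.6), and one on chromosome 2, from 145557798 to 145557986 (13.3), were not, and both lay within 1 kb of PU.1 and of macrophage H3K9Ace. The latter also lay 0.014 kb from adipocyte H3K9Ace. The last, on chromosome 6 at 131343160 to 131343356 (12.7), was bound in both cell types.

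The 25 regions bound in both cell types had a median macrophage fold of 9.38 (5.23 to 22.1) and a median adipocyte fold of 6.56 (5.05 to 16.4). Where PPARγ was found in 1 cell type alone the medians were 6.50 in macrophages and 6.15 in adipocytes. Of the 8 with the highest adipocyte fold, 5 were acetylated in adipocytes. Of those not named above, one lay on chromosome 6 between 129137239 and 129137679, with folds of 10.1 in adipocytes and 9.10 in macrophages. Another lay on chromosome 2 between 61333238 and 61333547 (8.92 and 5.23), and the last on chromosome 8 between 109993761 and 109993960 (8.77 and 6.64).

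At several of these regions the C/EBPβ and PPARγ intervals were almost the same interval. The centres of C/EBPβ and final macrophage PPARγ lay within 10 bp of each other in 39 of 129 cases, 30.2% (23.0 to 38.6), and at other C/EBPβ regions in 120 of 1071, 11.2% (9.45 to 13.2). The 39 were narrow, with a median C/EBPβ width of 196 bp against 293 bp for the other 90. Of the 39, 37 were acetylated in neither cell type, and of the other 90, 71. For final adipocyte PPARγ the centres coincided in 22 of 118 cases, 18.6% (12.6 to 26.6), and at other C/EBPβ regions in 28 of 261, 10.7%. Of these 22, 12 were acetylated in adipocytes, and of the other 96, 67. Among the 25 regions bound in both cell types, 9 had C/EBPβ, macrophage PPARγ and adipocyte PPARγ centred within 10 bp, and 8 of the 9 were acetylated in neither cell type. For comparison, 14 of the 25 and 5134 of all 6208 regions were acetylated in neither cell type. A narrow interval leaves less room for centres to differ, and the part of width in these counts was not tested. Without every region whose centre coincided with a final PPARγ centre in this way, the odds ratio between PPARγ of the cell types was 13.8 (6.89 to 25.8, 2-sided Fisher's exact test, adjusted p = 6.98e-11).

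Adipocyte acetylation of these regions was uneven over the chromosomes. The share ran from 10.9% of 386 regions on chromosome 10 to 28.1% of 256 on chromosome 17. By 2-sided Fisher's exact tests of each autosome against the others, with adjustment over 19, it was higher on 4 (21.1% of autosomes) and lower on 2 (10.5%). Chromosome 6 had 106 of 380, 27.9% (odds ratio 1.94, 1.52 to 2.47, by Fisher's exact test an adjusted p of 2.22e-06), and chromosome 17 had 72 of 256 (1.93, 1.44 to 2.57, adjusted p = 9.44e-05). Chromosome 19 had 27.3% (odds ratio 1.84, Fisher's exact test, adjusted p = 0.00219) and chromosome 8 had 23.2% (1.47, adjusted p = 0.0319). Lower shares were found on chromosome 10 (odds ratio 0.567, 0.398 to 0.789, by Fisher's exact test an adjusted p of 0.00219) and chromosome 1, with 12.8% (0.684, adjusted p = 0.0271). With lacked regions at least 1 kb away, chromosomes 6, 8 and 17 were called and no others, none of them lower. With C/EBPβ regions at least 10 kb apart, an alternative chosen after the data were seen, chromosome 10 was no longer called (odds ratio 0.661, Fisher's exact test, adjusted p = 0.0713) and chromosome 13 was called lower (0.601, adjusted p = 0.0288).

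The set shared this unevenness with other C/EBPβ regions. PU.1-bound regions without macrophage H3K9Ace were acetylated in adipocytes in 21.4% of cases on chromosome 6 and 7.81% on chromosome 10. Over the 19 autosomes the shares of the 2 classes had a Spearman rank correlation of 0.800, and both were read from the same adipocyte H3K9Ace list. That list covers 2.97 times as many bases as its macrophage counterpart on chromosome 6 and 1.34 times as many on chromosome 10. Final adipocyte PPARγ followed the acetylated share only in part. It covered 22 of 380 regions on chromosome 6, 5.79%, and 2 of 386 on chromosome 10, 0.518%, against 1.90% of the whole set. On chromosome 17, which had the highest acetylated share, it covered 4 of 256, 1.56%, a small count near the share of the whole set. The combined list there covered 9.38%, against 7.35% of the whole set. On chromosome 19 the share under the final list was 2.06%, and on chromosome 3, where 13.2% were acetylated, it was 2.29%. Over the 19 autosomes the rank correlation with the acetylated share was 0.53 for the final list and 0.74 for the combined list, given as a description, since the regions on each chromosome are the same ones. Without chromosome 6 the odds ratio of final adipocyte PPARγ between acetylated and other regions was 11.8.

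**Figure D5:**
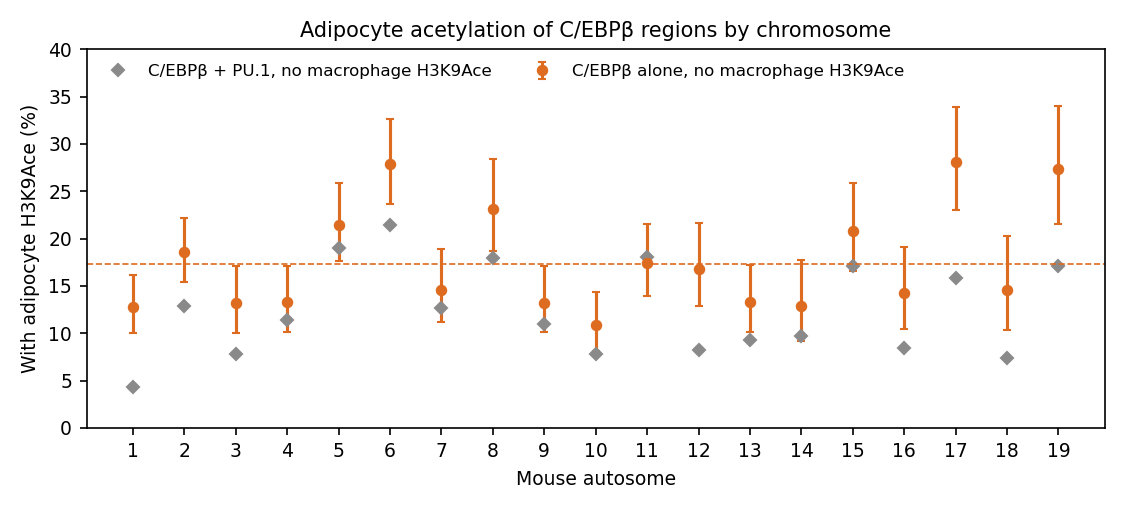
Share of regions with adipocyte H3K9Ace (vertical axis, percent) on each mouse autosome, for C/EBPβ-alone unacetylated regions (orange circles with 95% Wilson intervals) and for PU.1-bound C/EBPβ regions without macrophage H3K9Ace (grey diamonds). The dashed line is the share over all autosomes, 17.3%, and chromosomes 6, 17 and 19 stand highest.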

How the data were processed

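Per the labels, reads of 36 bp were mapped to mm8 with ELAND, allowing 2 mismatches and keeping unique best matches; peak calling settings: not given in the sources used here. The deposited lists give positions, and all PPARγ lists but the combined one also the authors' fold (a ratio over a control that the file headers do not name), a peak height (signal) and a false discovery rate in percent, per the file headers. Libraries were grouped by title, in keeping with the antibody field, although the description field of each record names PPARγ. Fold was used to rank and describe only. Repeated rows of adipocyte H3K9Ace (20) were counted once. Regions were compared as half-open intervals with overlap of at least 1 bp, and BED starts are printed 1-based.

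Shares carry 95% Wilson intervals, for counting error only. Classes were compared by Fisher's exact tests (scipy 1.17.1) giving the sample odds ratio and its exact 95% interval. The p-values were adjusted over 10 tests by the Benjamini-Hochberg method, with a threshold of 0.05. Strata used Mantel-Haenszel tests (statsmodels 0.14.6). Overlap code and tests were tested on simulated data. Named regions were the 8 with the highest fold under each final PPARγ list and under both, and the first 3 acetylated regions by number of C/EBPβ regions held. The set, its classes and tests were chosen with earlier results of these data known. The 397 C/EBPβ regions on chromosomes X and Y entered 1 alternative and a closing count only. No sequence or gene annotation of build mm8 was used here.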

Additional observations from a re-analysis of the deposited data

Results flagged for a closer look

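Adipocyte acetylation differed between regions with final PPARγ in adipocytes alone and those with it in macrophages alone. It was the test of that difference which singled it out. Of the 93 regions with final PPARγ in adipocytes alone, 68 were acetylated in adipocytes, 73.1% (95% Wilson interval 63.3 to 81.1). Of the 104 with final PPARγ in macrophages alone, 10 were, 9.62% (5.31 to 16.8). The odds ratio was 25.6 (10.9 to 62.7, 2-sided Fisher's exact test, p = 8.31e-21, chosen after the data were seen). Over the whole set 17.3% were acetylated in adipocytes. Regions in macrophages alone lack adipocyte PPARγ by definition, so this ratio partly restates the 10.4 found for adipocyte PPARγ. With the shared regions kept, 21 of 129 regions under final macrophage PPARγ were acetylated in adipocytes, and no difference was detectable (odds ratio 0.928). The adipocyte H3K9Ace and PPARγ libraries come from the same line, so the cell type and its libraries cannot be told apart.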

How the results depend on the processing

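No paired analysis was possible because each group holds 1 library. Of the 10 share tests, 9 passed the threshold, and of those, 8 kept direction and call under each alternative run for them. The exception was the longer macrophage list by adipocyte acetylation, 1.29 as reported, which missed the threshold within strata of C/EBPβ width (1.26) and with regions at least 10 kb apart (1.17, chosen after the data were seen). It passed under the other 6 of its 8 alternatives, and the cause of the difference was not tested. The test that did not pass, final macrophage PPARγ by adipocyte acetylation (0.928), crossed 1 without passing the threshold: 1.09 with overlap of at least 50% of the C/EBPβ region, 1.17 with its centre inside the other region, 1.39 with lacked regions at least 1 kb away, 1.09 in the upper 50% by fold and 1.29 without coincident centres. The number of autosomes called was 6, fell to 3 with lacked regions at least 1 kb away, was 8 with either stricter overlap, and was 6 with regions at least 10 kb apart, where chromosome 13 was called in place of chromosome 10. Depth is unknown, so an absent region may be one that a library could not detect.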

Other observations

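Adipocyte acetylated regions that held one of these C/EBPβ regions carried final adipocyte PPARγ anywhere within them in 136 of 1045 cases, 13.0% (11.1 to 15.2), against 1807 of the 49451 others, 3.65% (3.49 to 3.82). In the combined list the shares were 37.2% and 13.9%. Those that held one were also wider, and width was not held fixed. The others were not divided by whether they held a C/EBPβ region of another class. The contrast therefore does not separate this set from C/EBPβ regions in general. Where the acetylated region was clear of macrophage H3K9Ace these shares of final PPARγ were 12.2% of 699 and 3.34% of 33814.

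By width of the acetylated region, from the narrowest to the widest quartile, final adipocyte PPARγ lay at the C/EBPβ region itself in 2.86%, 8.70%, 12.2% and 6.77% of cases. The combined list gave 15.9%, 32.2%, 31.2% and 27.4%. Both lists had their lowest share in the narrowest acetylated regions, of 500 to 1000 bp.

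On chromosome X, 184 of 393 C/EBPβ regions lacked both PU.1 and macrophage H3K9Ace, and 16 of the 184 were acetylated in adipocytes.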
